A study of Prunus dulcis and Malus domestica and Olea europaea with 8 samples.

Results

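The miR166 family was examined in small RNA libraries of 8 plant-based foods. Its members were all genes of the deposited count table whose name places them in family miR165 or miR166. This gave 5 of the 209 miRNA genes, named MIR166a, MIR166b, MIR166c, MIR166d and MIR166e, and no miR165 gene. The foods were almond (Prunus dulcis), apple (Malus domestica), pear (Pyrus communis), orange (Citrus sinensis), olive (Olea europaea), spinach (Spinacia oleracea), tomato (Solanum lycopersicum) and walnut (Juglans regia). Each food was represented by 1 library, made from total RNA of the raw edible portion, and the labels give no cultivar or ripeness. The sample labels state an input of 0.1 g for fruits and spinach and 0.5 g for almond and walnut. For walnut the paper gives a lower mass, and almond is not among its foods. Almond, apple and pear belong to the Rosaceae, like the peach whose genome served as the reference for all foods.

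In land plants, miR166 and its close variant miR165 guide the cleavage of mRNAs for class III homeodomain-leucine zipper (HD-ZIP III) transcription factors. In Arabidopsis these targets include PHABULOSA, PHAVOLUTA and REVOLUTA, which set the upper side of the leaf, maintain the shoot meristem and pattern the vascular tissue. The miRNA restricts them to their domains, and the Argonaute protein AGO10 can hold miR166 away from the main silencing protein AGO1. The miRNA is usually encoded by several gene copies whose mature products are identical or nearly so. A read of the mature miRNA can therefore fit several of the copies, and the study's text does not state how such reads were assigned. The sum over the family does not depend on this assignment among the 5 copies, but the level of each single copy does, and any read set aside for fitting several copies would be missing from both. No mature sequence of the family is shown, since none was used here.

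The 5 genes lie on 4 chromosomes of the peach genome (NCBIv2), and the table annotates every one of them as a single exon of a miRNA gene. MIR166a (ENSRNA049995970) is on G1 from 2213018 to 2213111 on the - strand and is 94 bp long. MIR166d (ENSRNA049996337) is on G2 from 23268458 to 23268623 on the + strand, and MIR166c (ENSRNA049996411) is on the same chromosome and strand from 29691966 to 29692143. These lie 6423342 bp apart, so the pair does not form a tight cluster. MIR166e (ENSRNA049996894) is on G5 from 12576396 to 12576555, and MIR166b (ENSRNA049997204) is on G8 from 20544987 to 20545082, both on the + strand. The nearest other annotated miRNA gene is between 31192 bp away (MIR7122b, beside MIR166a) and 777408 bp away (a MIR159 gene, beside MIR166d). None of the 5 genes overlaps another gene of the table. Counts are per gene, so reads from both arms of a hairpin are summed.

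The libraries held a median of 67321 counts on the 209 genes, the shallowest being walnut (39249) and the deepest apple (212021). Levels are given as percent of these counts, here called the share. Reads that fit none of these peach genes are outside the total, so a share is not a part of all miRNAs of a food. The families counted ran from 31 in walnut to 64 in almond. How much of each food's miRNAs the peach genes cover was not tested. Since a read covers most of a mature miRNA, no scaling by gene length was applied. As each food had 1 library, replicate error could not be estimated and no test between foods was made. Intervals are exact at the 95% level, by Clopper-Pearson for shares, by Poisson for raw counts and by the conditional binomial for ratios. They cover counting error only and no spread between samples. The reads carried no molecular identifiers, so PCR copies of a molecule are counted separately and the intervals may be too narrow. For a count of 0 the limit given is 3 counts, a one-sided bound that lies below the upper end of the two-sided exact interval (3.69 counts). Each of the 5 members was counted in at least 1 food, as were 89.5% of all genes. MIR166a, MIR166b and MIR166d were counted in all 8 foods, as were 9.09% of all 209 genes, and each of these 3 had at least 10 counts in every food, as did 4.78% of all genes. MIR166e was counted in 7 foods and MIR166c in 5. Apple, olive, orange, pear and tomato had counts of all 5 members, where 46.4%, 48.8%, 46.4%, 50.2% and 50.7% of all genes were counted. Almond and walnut had counts of 4 members (58.9% and 32.5% of all genes), and spinach of 3 (33.0%).

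The family was a major part of the miRNA counts in olive, orange, tomato and pear, and led in olive. It was the highest of the 46 families counted in olive and ranked second in orange, pear and tomato. It ranked 4 in walnut, 5 in spinach, 6 in apple and 9 of 64 families in almond. The raw family counts were 28036 in olive (95% CI 27709 to 28366), 17962 in tomato (17700 to 18227), 15210 in orange (14969 to 15454) and 14302 in pear (14069 to 14538). Lower raw counts were found in apple, with 6977 (6814 to 7143), spinach, with 3776 (3657 to 3898), walnut, with 2452 (2356 to 2551), and almond, with 1185 (1118 to 1254). Apple thus stood below olive, tomato, orange and pear in raw counts although its library was the deepest.

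As a share, the family held 41.5% of the miRNA counts in olive (95% CI 41.1 to 41.8), 22.7% in orange (22.4 to 23.0), 19.8% in tomato (19.6 to 20.1) and 13.1% in pear (12.9 to 13.3). The share was 6.87% in spinach (6.66 to 7.09), 6.25% in walnut (6.01 to 6.49), 3.29% in apple (3.22 to 3.37) and 2.08% in almond (1.96 to 2.20). Neighbours in this order were separated by more than counting error, the closest being spinach and walnut, with a ratio of 1.10 (1.05 to 1.16), and orange and tomato, with 1.15 (1.12 to 1.17). Whether these neighbours would keep their order in other samples of the same foods cannot be told from 1 library each. The share was 19.9 times as high in olive as in almond (18.8 to 21.2). In shares, this was a narrow range beside the other families: among the 19 families counted in all 8 foods, the ratio of the highest to the lowest share had a median of 88.2, and only miR159 (4.93) had a smaller one than miR166. Under the deposited factors, TMM and the default and poscounts methods of DESeq2, which are other ways of scaling the libraries, the miR166 ratio was 132.4, 107.0, 15.8 and 49.1, against medians of 358.7, 225.0, 85.0 and 161.0 over the same 19 families. It then had rank 5, 5, 4 and 4 from the narrowest.

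**Figure D1:**
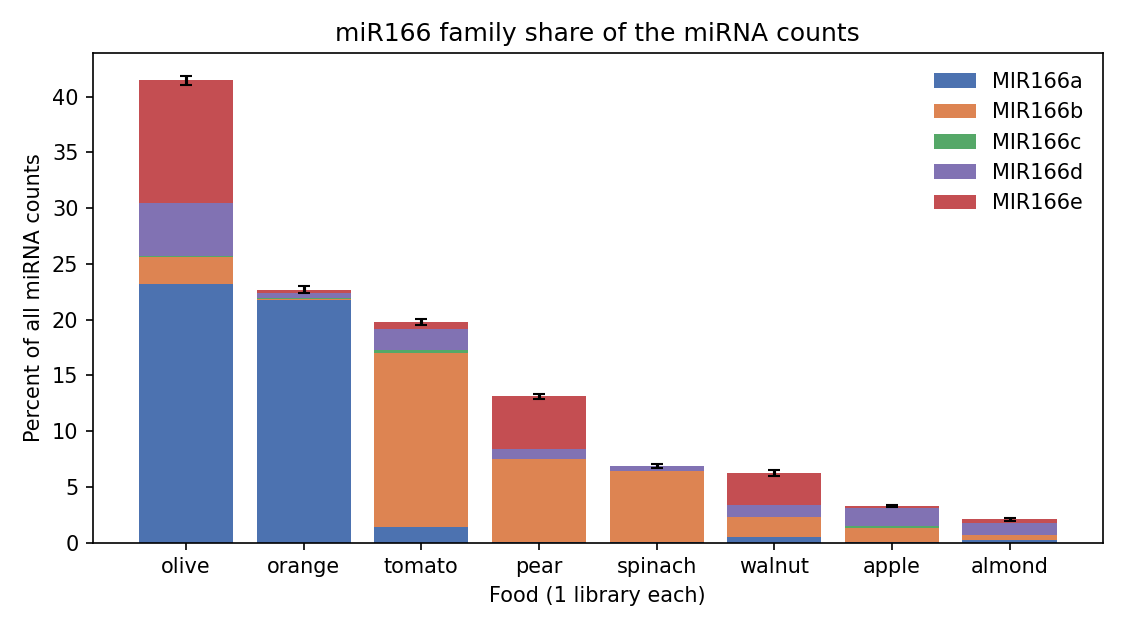
Share of all miRNA counts held by the miR166 family in each food (bars, percent, 1 library per food), divided by gene copy, with exact 95% Clopper-Pearson intervals of the sum (black). Olive stands at 41.5% and almond at 2.08%, and MIR166a makes up most of the bar in olive and orange, MIR166b in tomato, pear and spinach.

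Other scalings of the libraries gave another order of the foods. In the deposited normalized reads, in which each library is divided by 1 factor between 1.05 (almond) and 241.0 (apple), the family sum was 3833 in olive, 1516 in orange, 1131 in almond and 639.5 in walnut. It was 487.1 in pear, 414.5 in tomato, 175.4 in spinach and 28.9 in apple. Almond thus moved from the lowest food by share to a place behind olive and orange only, and apple became the lowest. The ratio of olive to almond was 3.39 on this scale, and that of olive to apple was 132.4 (129.0 to 136.0). Olive was the highest food under the share, the deposited factors, edgeR's TMM and both DESeq2 methods that were recomputed from the counts. Almond was the lowest under all of these except the deposited factors. Orange ranked 2 or 3 in each of the 5 scalings.

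**Figure D2:**
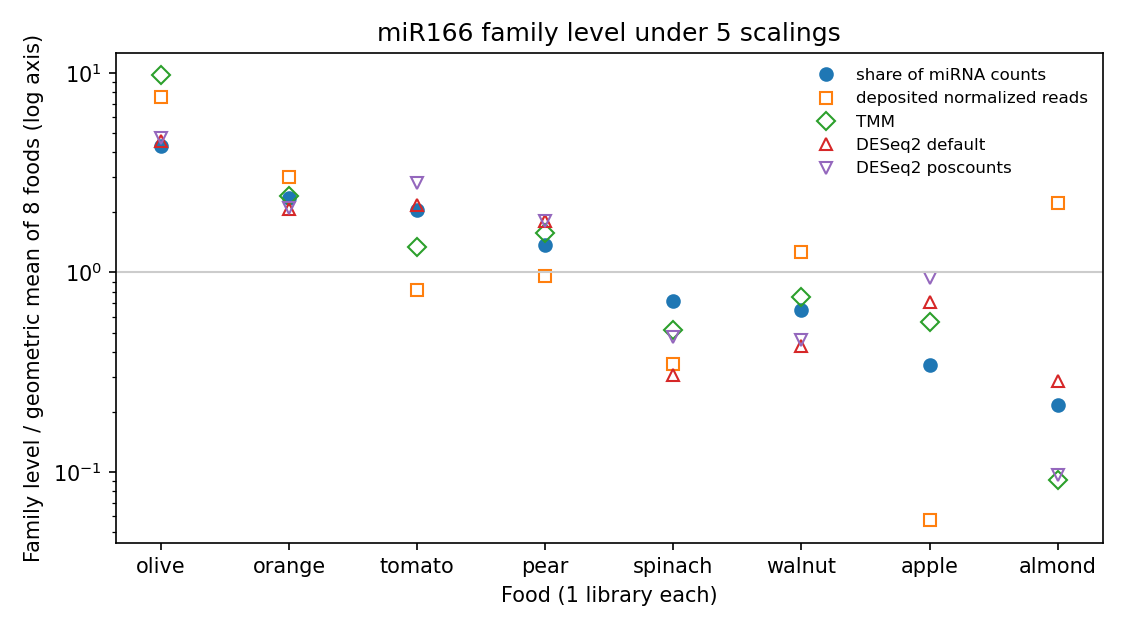
Family level in each food under 5 scalings of the counts, as a multiple of the geometric mean of the 8 foods (log axis, 1 library per food). Olive is the highest under every scaling shown, while almond runs from 0.0911 times the geometric mean (TMM) to 2.23 times (deposited normalized reads).

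MIR166a was high in a pair of foods and low in the other 6. It had 15712 counts in olive (95% CI 15467 to 15960) and 14595 in orange (14359 to 14834), which made it the highest of all genes in olive and the second highest in orange. Its share was 23.2% in olive (22.9 to 23.6) and 21.8% in orange (21.5 to 22.1), the next food being tomato with 1231 counts and 1.36% (1.28 to 1.44). The remaining counts were 191 in walnut, 188 in apple, 140 in almond, 54 in pear and 34 in spinach, or 0.0495% (pear) to 0.487% (walnut) of their libraries. The share in olive was 469.0 times that in pear (359.2 to 624.6). Olive and orange were this close in shares, but in deposited normalized reads MIR166a was at 2148 in olive and 1455 in orange.

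MIR166b was highest where MIR166a was not. It had 14218 counts in tomato (95% CI 13985 to 14454), 8145 in pear (7969 to 8324), 3507 in spinach (3392 to 3625), 2598 in apple (2499 to 2700), 1629 in olive (1551 to 1710), 694 in walnut (643.3 to 747.6), 228 in almond (199.4 to 259.6) and 79 in orange (62.5 to 98.5). It was the second highest gene of the tomato library at 15.7% (15.4 to 15.9), number 4 in pear at 7.47% (7.32 to 7.63) and number 5 in spinach at 6.39% (6.18 to 6.59). Orange, the second highest food for MIR166a, was the lowest for MIR166b, at 0.118% (0.0933 to 0.147). The tomato share was 133.1 times the orange share (106.7 to 168.2).

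MIR166e was led by olive, pear and walnut. Its counts were 7409 in olive (95% CI 7241 to 7580), 5178 in pear (5038 to 5321), 1135 in walnut (1070 to 1203), 583 in tomato, 350 in apple, 180 in orange and 163 in almond. The shares were 11.0% in olive (10.7 to 11.2), 2.89% in walnut (2.73 to 3.06) and 4.75% in pear (4.63 to 4.88), and 0.165% (apple) to 0.643% (tomato) in the other foods with counts. Spinach had 0 counts of MIR166e among 54924, which allows a share of up to 0.00546%, so the olive share was at least 2006-fold higher than this limit of 3 counts. The same spinach library held 3507 counts of MIR166b.

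MIR166d had the narrowest range of shares among the 3 copies counted in all 8 foods. It had 3566 counts in apple (95% CI 3450 to 3685), 3227 in olive (3117 to 3340), 1719 in tomato (1639 to 1802), 915 in pear (856.7 to 976.3), 654 in almond (604.8 to 706.1), 352 in orange (316.2 to 390.8), 432 in walnut (392.2 to 474.7) and 235 in spinach (205.9 to 267.0). Its share was 4.77% in olive (4.61 to 4.94) and lay between 0.428% (spinach) and 1.90% (tomato) in the other 7 foods. The ratio of the highest to the lowest share was 11.2 (9.77 to 12.8), against a median of 178.9 over the 19 genes counted in all 8 foods. Only the MIR159 gene ENSRNA049996936, at 5.10, had a smaller ratio among these. MIR166a and MIR166b, at 469.0 and 133.1, lay on either side of that median. In deposited normalized reads MIR166d differed 57.2-fold, from 10.9 in spinach to 624.2 in almond, and MIR166b differed less, 41.7-fold. With TMM and both DESeq2 methods MIR166d again had the narrowest range of the 3 copies, 18.5-fold to 35.0-fold.

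MIR166c was the least counted copy. It had 275 counts in apple (95% CI 243.5 to 309.5), 211 in tomato (183.5 to 241.5), 59 in olive (44.9 to 76.1), 10 in pear (4.80 to 18.4) and 4 in orange (1.09 to 10.2). Its highest share was 0.233% in tomato (0.202 to 0.266), followed by 0.130% in apple (0.115 to 0.146). Almond, spinach and walnut had 0 counts, which allows shares of up to 0.00526%, 0.00546% and 0.00764%. A level such as the 0.00597% of orange (0.00163 to 0.0153) is near those limits, so a difference from orange was not detectable at this depth. Against the walnut limit, the tomato share was at least 30.5-fold higher.

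**Figure D3:**
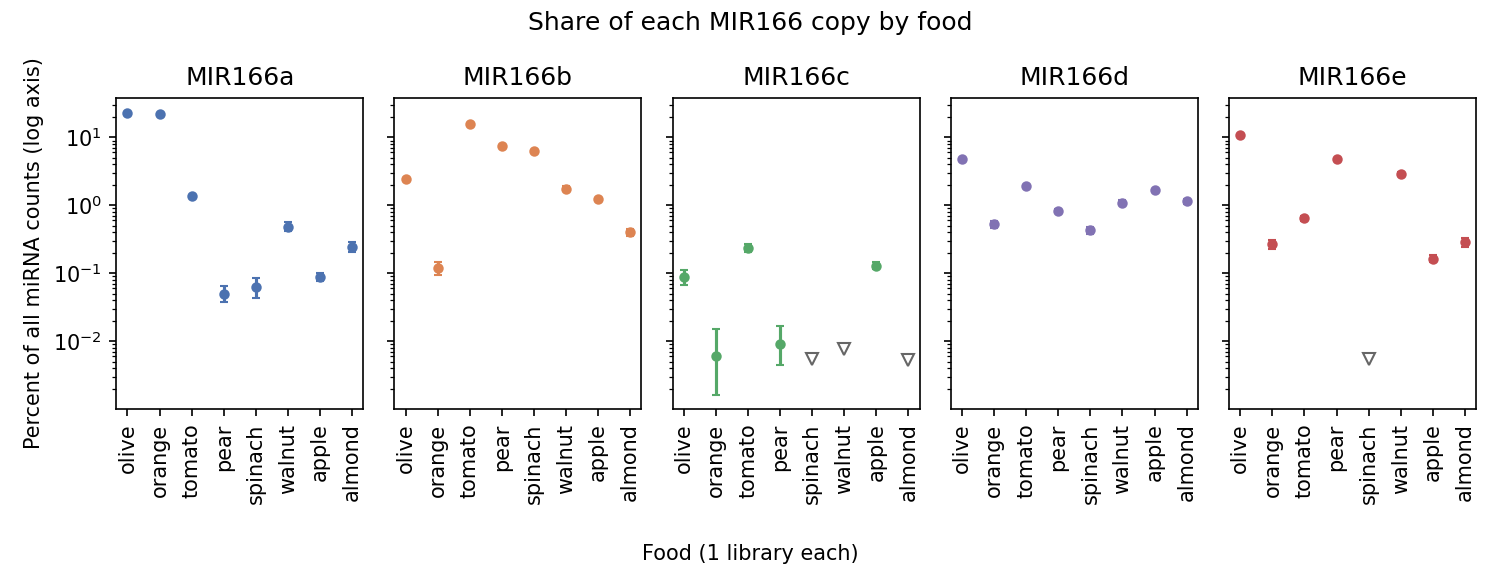
Share of all miRNA counts of each MIR166 copy by food (log axis, 1 library per food), with exact 95% intervals (bars on the points). Open triangles mark the limit that a count of 0 allows, as for MIR166e in spinach at 0.00546%, and the points of MIR166d run from 0.428% to 4.77%, the narrowest range of the 3 copies counted in every food when levels are given as shares.

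The copy that took most of the family counts differed between foods. MIR166b led in 3 foods, MIR166a and MIR166d in 2 each, MIR166e in 1 and MIR166c in none. MIR166a held 96.0% of the family in orange (95% CI 95.6 to 96.3) and 56.0% in olive (55.5 to 56.6), where MIR166e held a further 26.4%. MIR166b held 92.9% in spinach (92.0 to 93.7), 79.2% in tomato (78.6 to 79.7) and 57.0% in pear (56.1 to 57.8), with MIR166e at 36.2% in pear. MIR166d led in almond at 55.2% (52.3 to 58.0) and in apple at 51.1% (49.9 to 52.3), both with MIR166b second, at 19.2% and 37.2%. MIR166e led in walnut at 46.3% (44.3 to 48.3), with MIR166b at 28.3% and MIR166d at 17.6%.

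How evenly the counts were spread was expressed as the effective number of copies (inverse Simpson), which is 1 when a single copy holds all counts and 5 when all members are equal. It was 1.09 in orange (95% interval for counting error 1.08 to 1.09), 1.15 in spinach (1.13 to 1.17) and 1.56 in tomato (1.54 to 1.58). Pear followed with 2.18 (2.15 to 2.20), apple with 2.47 (2.43 to 2.51), olive with 2.50 (2.47 to 2.52), almond with 2.67 (2.51 to 2.83) and walnut with 3.02 (2.92 to 3.11). The intervals of apple and olive overlapped, as did those of olive and almond, and the differences between these neighbours were not tested. Orange and spinach were alike in having nearly all counts on a single copy, but the copy was MIR166a in orange and MIR166b in spinach.

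**Figure D4:**
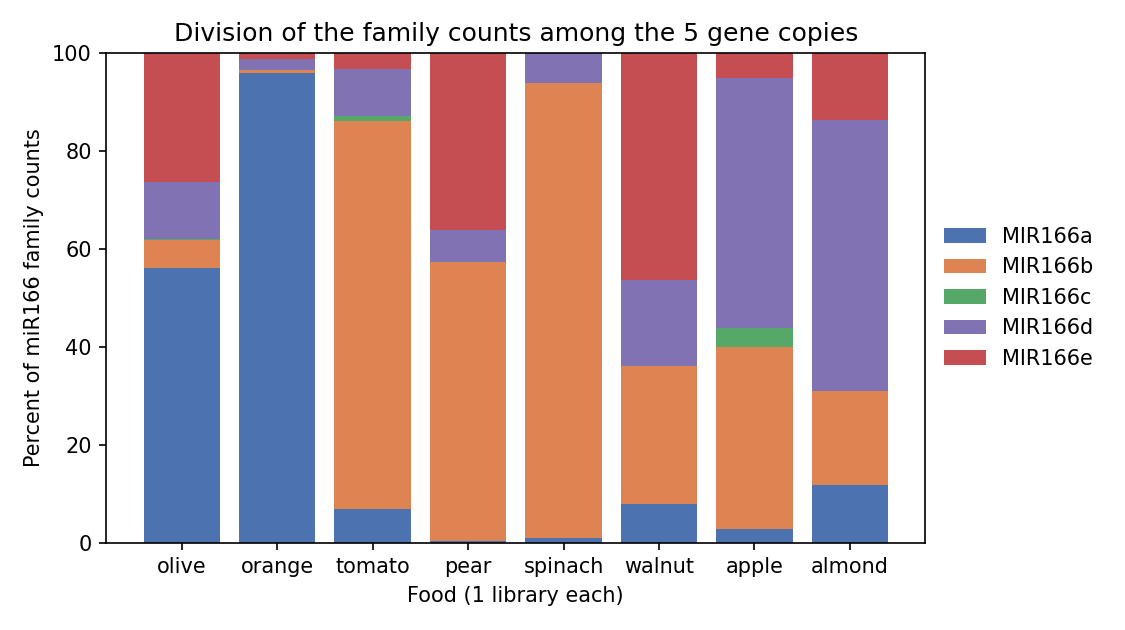
Division of the miR166 family counts among the 5 gene copies in each food (stacked bars, percent of family counts, 1 library per food). MIR166a takes 96.0% in orange, MIR166b 92.9% in spinach, MIR166d 55.2% in almond and MIR166e 46.3% in walnut.

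The split was compared between foods by the share of the family counts that would have to move from some copies to others to turn one split into the other, in percentage points. Spinach and tomato were closest, at 13.7 points, followed by almond and apple at 21.9 and pear and walnut at 28.7. Orange and spinach were farthest apart, at 96.3 points. The median over the 28 pairs was 58.7, and 18 pairs differed by more than 50 points. Apple and pear, the closest relatives among the 8 plants, differed by 50.9 points, as pear had 36.2% of its family counts on MIR166e and apple 5.02% (4.52 to 5.55).

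Ratios of copies within a library do not depend on the scaling factor of that library. Like the splits above, they do depend on how reads that fit several copies were assigned, which the study's text does not state. MIR166a over MIR166b was 184.7 in orange (95% CI 148.1 to 233.5) and 9.65 in olive (9.16 to 10.2), and below 1 in the other 6 foods. It was 0.614 in almond (0.494 to 0.761), 0.275 in walnut (0.233 to 0.323), 0.0866 in tomato (0.0816 to 0.0918) and 0.0724 in apple (0.0621 to 0.0839). The lowest ratios were 0.00969 in spinach (0.00670 to 0.0136) and 0.00663 in pear (0.00498 to 0.00866), whose intervals overlapped. MIR166e over MIR166b was above 1 in olive (4.55, 4.31 to 4.80), orange (2.28, 1.74 to 3.01) and walnut (1.64, 1.49 to 1.80). It was 0.0410 in tomato (0.0377 to 0.0445), the lowest of the foods with counts of both. MIR166d over MIR166b was above 1 in orange (4.46, 3.48 to 5.76), almond (2.87, 2.46 to 3.35), olive (1.98, 1.87 to 2.10) and apple (1.37, 1.30 to 1.44). Orange and olive were thus the foods where each of MIR166a, MIR166d and MIR166e exceeded MIR166b. Across the 8 foods, Spearman's rho between the shares of 2 copies ran from -0.26 (MIR166a and MIR166b) to 0.66 (MIR166c and MIR166d) over the 10 pairs of copies. These values are a description over 8 points that share libraries and totals.

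In the 3 Rosaceae, the relatives of the reference, the family share was 2.08% in almond, 3.29% in apple and 13.1% in pear. The other 5 foods lay between 6.25% and 41.5%, so in shares pear was within their range and almond and apple below it. Other scalings changed this. As multiples of the geometric mean of the 8 foods, apple was above spinach with TMM (0.564 against 0.514), the DESeq2 default (0.713 against 0.306) and poscounts (0.940 against 0.473). Almond stayed below the 5 foods in these. In deposited normalized reads almond (2.23) was above walnut (1.26), and apple (0.0572) stayed below all 5. MIR166a was at 0.246% in almond (95% CI 0.207 to 0.290), 0.0887% in apple (0.0765 to 0.102) and 0.0495% in pear (0.0372 to 0.0646), while spinach, outside the Rosaceae, stood at 0.0619% (0.0429 to 0.0865). Almond, of the same genus as peach, had neither the highest share nor the most members counted. How well the reads of each plant match the peach sequences was not tested.

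Among the 16 genes outside the family that were counted in all 8 foods, the shares of 3 followed the family sum most closely, each with Spearman's rho of 0.62 over the 8 foods. MIR168, whose target is the AGO1 mRNA, was highest with the family in olive, at 11.7% (95% CI 11.5 to 12.0), and lowest with it in almond, at 0.181% (0.148 to 0.219). Without the apple library, rho was 0.96 for MIR168, 0.64 for MIR171b and 0.50 for MIR396b, an alternative chosen after the values were seen. In apple MIR168 was at 4.47%, below olive only, and the family at 3.29%, above almond only. Leaving apple out therefore favours MIR168. The 3 genes were picked as the highest of 16 over these same 8 foods, so their rho does not show a link to the family. MIR396b, whose family acts on mRNAs of growth-regulating factors, was at 5.56% in spinach, 3.85% in olive and 3.28% in tomato, and at most 0.482% in the other foods. Another gene of that family, MIR396 (ENSRNA050003821), was also counted in all 8 foods but had a rho of 0. It held 36.4% in apple, 20.1% in spinach, 8.63% in pear and 3.99% in olive, so the likeness of MIR396b does not extend to its family. MIR171b, of the family that targets GRAS transcription factors, had between 1 count (pear and walnut) and 110 counts (orange), so its likeness rests on few reads.

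The families that act in the same developmental processes were set beside miR166. miR164, which restricts the CUC boundary genes, has 4 genes in the table and held 10.7% of the counts in tomato (95% CI 10.5 to 10.9), 4.05% in orange, 2.12% in apple and 1.39% in pear. It was at most 0.0455% in almond, olive, spinach and walnut, so olive, the highest food for miR166, had only 7 counts of miR164. miR390, which starts the trans-acting siRNA route of leaf polarity, has 2 genes and held 2.45% in orange (2.33 to 2.57), 0.384% in olive and 0.247% in walnut. Apple had 0 counts of miR390 among 212021, which allows a share of up to 0.00141%, beside 6977 counts of miR166. miR394, which acts in the shoot meristem, has 2 genes and ran from 0.00330% in apple (0.00133 to 0.00680) to 0.427% in orange (0.379 to 0.479). The miR166 counts exceeded those of miR164, miR390 and miR394 in all 8 foods. They also exceeded those of miR168, which has 1 gene, in every food except apple, where the ratio of miR166 to miR168 was 0.736, against 3.54 in olive and 21.0 in walnut.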

How the data were processed

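Small RNA-seq of 8 foods with 1 library each was analyzed. Per the paper, adapters were trimmed with skewer, reads of 15 to 30 bases were aligned with ShortStack to peach (Prunus persica NCBIv2, miRBase 22; at most 2 mismatches in the seed area) and counted by strand with HTSeq. Their versions are not stated. In the raw table the authors deposited whole-number counts for each gene, without normalization. The deposited normalized signal, credited to DESeq2, equals the count divided by 1 factor per library, from 1.05 to 241.0. DESeq2 factors recomputed here from these counts ran from 0.535 to 1.60 (default) and 0.958 to 2.20 (poscounts), so the deposited ones were not obtained again. The 5 members, the lists and the measures were chosen with earlier results of these data known. All members were named, with the 3 genes outside the family of highest rho and families miR164, miR168, miR390 and miR394. No test between foods was run, as no food had a second library. Dixon's test was used across the 8 libraries. A count of 0 was given an upper limit of 3 counts. Alternatives were other denominators, minimums of 3 and 10 counts, and other scalings. Calculations were tested on simulated data in which the libraries differed far less than these foods. That test does not show that the scalings suit these foods. Almond gene tables matched none of the gene IDs (0) and were not used. Software was edgeR 4.0.16 and DESeq2 1.42.0 in R 4.3.3, and scipy 1.17.1, pandas 2.3.3, numpy 2.4.6 and matplotlib 3.10.9 in Python 3.11.15.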

Additional observations from a re-analysis of the deposited data

Results flagged for a closer look

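Dixon's test over the 8 libraries (at its 95% critical value) was applied to 8 measures: the family share, the effective number of copies, the share of the leading copy within the family and the shares of the 5 members. A library that stands apart here is a different plant and not a failed replicate. Chance sets about 1 in 20 groups apart in this way when the values come from a single normal distribution. That rate need not hold for skewed shares of different plants, such as MIR166e with a median of 0.465% and a highest share of 11.0%. The 8 measures also overlap, since the members make up the family. Tomato stood apart by its MIR166b share of 15.7%, with pear next at 7.47% and a Dixon ratio of 0.528, just above the critical value. That ratio was 0.540 with DESeq2 poscounts but 0.158 in deposited normalized reads, 0.159 with TMM and 0.401 with the DESeq2 default, all 3 below the critical value. Olive stood apart by its MIR166d share of 4.77%, with tomato next at 1.90%, and by its MIR166e share of 11.0%, with pear next at 4.75%. For MIR166d this held with TMM (0.765) and not with the DESeq2 default (0.315) or poscounts (0.125), and in deposited normalized reads almond (624.2) was above olive (441.2). For MIR166e it held in deposited normalized reads (0.708) and with TMM (0.778), and not with the DESeq2 default (0.452) or poscounts (0.476). MIR166a was not flagged by share, where the Dixon ratio of olive was 0.0629, but with TMM olive stood apart (0.575). Its ratio was 0.323 in deposited normalized reads, 0.221 with the DESeq2 default and 0.239 with poscounts, each below the critical value. These scalings were added after the shares had been seen. The family share of olive, 41.5%, did not reach the critical value, with a Dixon ratio of 0.476. That result is for shares only, and Dixon's test was not run on the family in the other scalings. Olive was the highest food in those too. In deposited normalized reads the family was at 3833 in olive, with orange next at 1516. As multiples of the geometric mean of the 8 foods, olive was at 9.75 with TMM, with orange next at 2.42. Olive was at 4.55 with the DESeq2 default and 4.74 with poscounts, with tomato next at 2.17 and 2.82.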

How the results depend on the processing

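Without the highest gene of each library in the denominator, the family share rose to 54.0% in olive, 40.2% in orange and 27.5% in tomato. It rose to 24.2% in pear, 11.1% in spinach, 9.25% in walnut, 5.18% in apple and 2.40% in almond. The order of the foods was kept, but in olive that gene was MIR166a itself, whose counts stayed in the numerator. The olive value and its first place here follow from this calculation and cannot be set against the other foods. Without MIR166a, an alternative chosen after the data were seen, the family share was 18.5% in tomato, 18.2% in olive, 5.76% in walnut, 3.20% in apple, 1.83% in almond and 0.918% in orange, so that orange fell from second to last. In pear and spinach the share stayed within its interval. The olive to almond ratio of 19.9 became 3.39 with the deposited normalized reads and 107.0 with TMM. It was 15.8 with the default and 49.1 with the poscounts method of DESeq2. Without the highest genes in the denominator it was 22.5, with MIR166a still in the olive numerator. For the likeness to the family sum, rho in deposited normalized reads was 0.69 for MIR168, 0.76 for MIR171b and 0.26 for MIR396b, and other genes were higher, such as MIR156d at 0.86. Of 87 alternative values, 50 stayed within the interval of the main value or, for counts and ranges, within 1.5 times, for rho among the first 3 genes, and for Dixon's test above the critical value in the same food. This tally is not a measure of robustness, since the minimums of 3 and 10 counts could change little. Among the members counted in a food, only MIR166c in orange had fewer than 10 counts. None of the other scalings kept the olive to almond ratio within its interval. No paired analysis was possible because each food had 1 library. Low counts limit MIR166c most, which had at most 10 counts in 5 of the 8 foods.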
